A study of Homo sapiens with 14 samples.

Results

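The genes described here encode 8 surface or secreted proteins that have been studied as antigens of Ewing sarcoma: STEAP1, STEAP2, IL1RAP, LINGO1, ADGRG2, LIPI, CD99 and ENPP1. They were taken by name, with earlier results of these data known, and make up 8 of the 19970 protein-coding genes of the autosomes and X. For each gene, peaks were collected over the gene body with 10 kb and with 50 kb either side, and within 1 kb of the starts of its protein-coding transcripts. The data are CUT&RUN peak lists, in which fragments released next to an antibody's target are sequenced and enriched stretches of the genome are called.

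All 14 libraries came from untreated, wild-type TC-32 cells, a long-used cell line grown from an Ewing sarcoma with the EWSR1::FLI1 fusion, so every value is from 1 line and there is no perturbed group. FLI1 (Abcam ab15289) was mapped in 2 libraries of set A and 2 of set B, H3K27ac (Abcam ab4729) in 2 of set A, and H3K9me3 (Abcam ab8898) and H3K27me3 (CST 9733S) in 2 of set B each. The other 4 libraries were IgG controls (CST 66362S), against which the peaks had been called. The labels do not say how sets A and B differ, and do not say whether replicates were separate cultures. The FLI1 antibody cannot be assumed to separate the fusion from full-length FLI1, and no expression was measured.

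EWSR1::FLI1 joins the N-terminal part of EWSR1 to the DNA-binding part of FLI1, a transcription factor of the ETS family. ETS factors recognise a GGAA core, often within CCGGAA near gene starts. The fusion is also known to bind microsatellites made of consecutive GGAA units, which can act as enhancers in Ewing sarcoma. H3K27ac marks active promoters and enhancers, H3K9me3 marks heterochromatin and H3K27me3 marks Polycomb repression.

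Among these genes, 6 of 8 had a run of at least 10 consecutive GGAA units that lay in FLI1 regions of all 4 libraries, within the gene body and 50 kb either side. The same held for 3.71% of all protein-coding genes. The 5 distinct runs are shown because the strongest FLI1 regions of most of these genes lay over them. Each is given 5′ to 3′ on the strand that reads GGAA, with 50 bases either side, and every GGAA is in capitals. STEAP1 and STEAP2 share 1 run of 17 units, in an intron of STEAP2 (hg38 chr7:90208364-90208531, plus strand). IL1RAP has 13 units in an intron (chr3:190522241-190522392, minus strand). LINGO1 has 16 units in an intron (chr15:77738701-77738864, plus strand). LIPI has 11 units upstream of the gene (chr21:14213242-14213385, minus strand). ENPP1 has 12 units upstream of the gene (chr6:131761868-131762015, minus strand). The run upstream of CD99 has 13 units (chrX:2665113-2665264, minus strand) and lay in FLI1 regions of set A alone.
STEAP1 and STEAP2: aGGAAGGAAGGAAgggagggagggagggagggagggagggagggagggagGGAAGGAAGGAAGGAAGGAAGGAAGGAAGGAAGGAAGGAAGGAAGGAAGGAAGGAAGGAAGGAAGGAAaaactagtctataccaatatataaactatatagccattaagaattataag
IL1RAP: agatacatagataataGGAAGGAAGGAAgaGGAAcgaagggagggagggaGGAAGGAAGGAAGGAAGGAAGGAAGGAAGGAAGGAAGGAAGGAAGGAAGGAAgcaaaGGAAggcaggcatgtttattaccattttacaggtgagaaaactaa
LINGO1: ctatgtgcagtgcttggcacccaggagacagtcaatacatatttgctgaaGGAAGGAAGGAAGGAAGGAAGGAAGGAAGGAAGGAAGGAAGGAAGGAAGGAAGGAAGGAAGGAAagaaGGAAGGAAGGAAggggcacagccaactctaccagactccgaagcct
LIPI: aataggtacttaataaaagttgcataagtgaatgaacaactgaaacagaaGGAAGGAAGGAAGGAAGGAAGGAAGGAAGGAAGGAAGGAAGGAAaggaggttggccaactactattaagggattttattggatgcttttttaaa
ENPP1: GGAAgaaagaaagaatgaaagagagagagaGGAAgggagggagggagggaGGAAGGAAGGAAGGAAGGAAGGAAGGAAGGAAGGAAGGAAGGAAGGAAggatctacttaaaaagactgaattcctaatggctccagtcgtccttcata
CD99: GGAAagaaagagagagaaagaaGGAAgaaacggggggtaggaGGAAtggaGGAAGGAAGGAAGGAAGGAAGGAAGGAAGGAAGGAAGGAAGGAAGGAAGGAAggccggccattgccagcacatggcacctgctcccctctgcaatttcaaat

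The bases before gene starts counted as FLI1-bound were also read. The stretches below precede the first annotated exon at the 4 gene starts with a FLI1 region within 1 kb in all 4 libraries. They are from the RefSeq promoter table (GRCh38, on the strand of the gene), with CCGGAA or its complement TTCCGG in capitals. At LIPI the region over the 11-unit run was itself counted at the start in set A and in set B replicate 2. In set B replicate 2 its summit lay 1565 bp upstream of the start. None of the 4 stretches held a GGAA run. The STEAP1 stretch held both letter strings, overlapping as 1 palindrome, and the other stretches held neither. Within the 250 bases before the start, 14.5% of the 34961 promoters of the table held at least 1 of them and 3.16% at least 2, with both strands counted.
STEAP1 chr7:90154219-90154455: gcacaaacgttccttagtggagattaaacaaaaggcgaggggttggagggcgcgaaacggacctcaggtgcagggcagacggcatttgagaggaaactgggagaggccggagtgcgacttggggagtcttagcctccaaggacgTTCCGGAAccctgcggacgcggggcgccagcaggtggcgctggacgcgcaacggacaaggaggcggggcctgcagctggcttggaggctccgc
IL1RAP chr3:190513835-190514050: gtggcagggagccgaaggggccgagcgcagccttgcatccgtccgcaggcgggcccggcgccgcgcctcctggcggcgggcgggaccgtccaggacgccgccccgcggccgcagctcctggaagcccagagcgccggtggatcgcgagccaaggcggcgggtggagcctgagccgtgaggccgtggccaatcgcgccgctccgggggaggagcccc
LIPI chr21:14210956-14211205: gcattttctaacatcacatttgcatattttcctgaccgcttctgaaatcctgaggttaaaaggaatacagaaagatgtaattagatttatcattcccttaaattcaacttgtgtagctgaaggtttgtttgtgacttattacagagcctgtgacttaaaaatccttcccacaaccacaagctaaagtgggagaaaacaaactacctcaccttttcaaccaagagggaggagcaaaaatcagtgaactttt
ENPP1 chr6:131807770-131808015: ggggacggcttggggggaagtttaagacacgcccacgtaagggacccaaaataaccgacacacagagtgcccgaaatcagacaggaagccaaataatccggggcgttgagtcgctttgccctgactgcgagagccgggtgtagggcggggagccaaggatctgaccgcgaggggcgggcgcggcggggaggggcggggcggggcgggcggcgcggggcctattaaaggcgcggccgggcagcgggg

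The FLI1 lists held 35210, 40590, 38221 and 29339 regions, in the order set A replicates 1 and 2 and set B replicates 1 and 2, which is kept below. A region's fold is its enrichment over IgG as the authors' peak caller gave it, and it depends on the depth of both libraries, which is unknown here. Folds were therefore ranked within each list, as the percentage of that list's regions with the same or a lower fold. Set A lists had more broad regions: 5.37% and 4.67% of their regions were wider than 2 kb, against 1.52% and 1.92% in set B. Runs of at least 4 units within 250 bp of the summit were also more common in set A among the strongest regions. They were in 25.9% and 26.7% of the strongest 5% of set A lists, against 14.6% and 16.5% in set B. With 2 libraries against 2, an exact two-sided permutation test cannot give a p below 0.333, so sets are set side by side without a test.

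**Figure D1:**
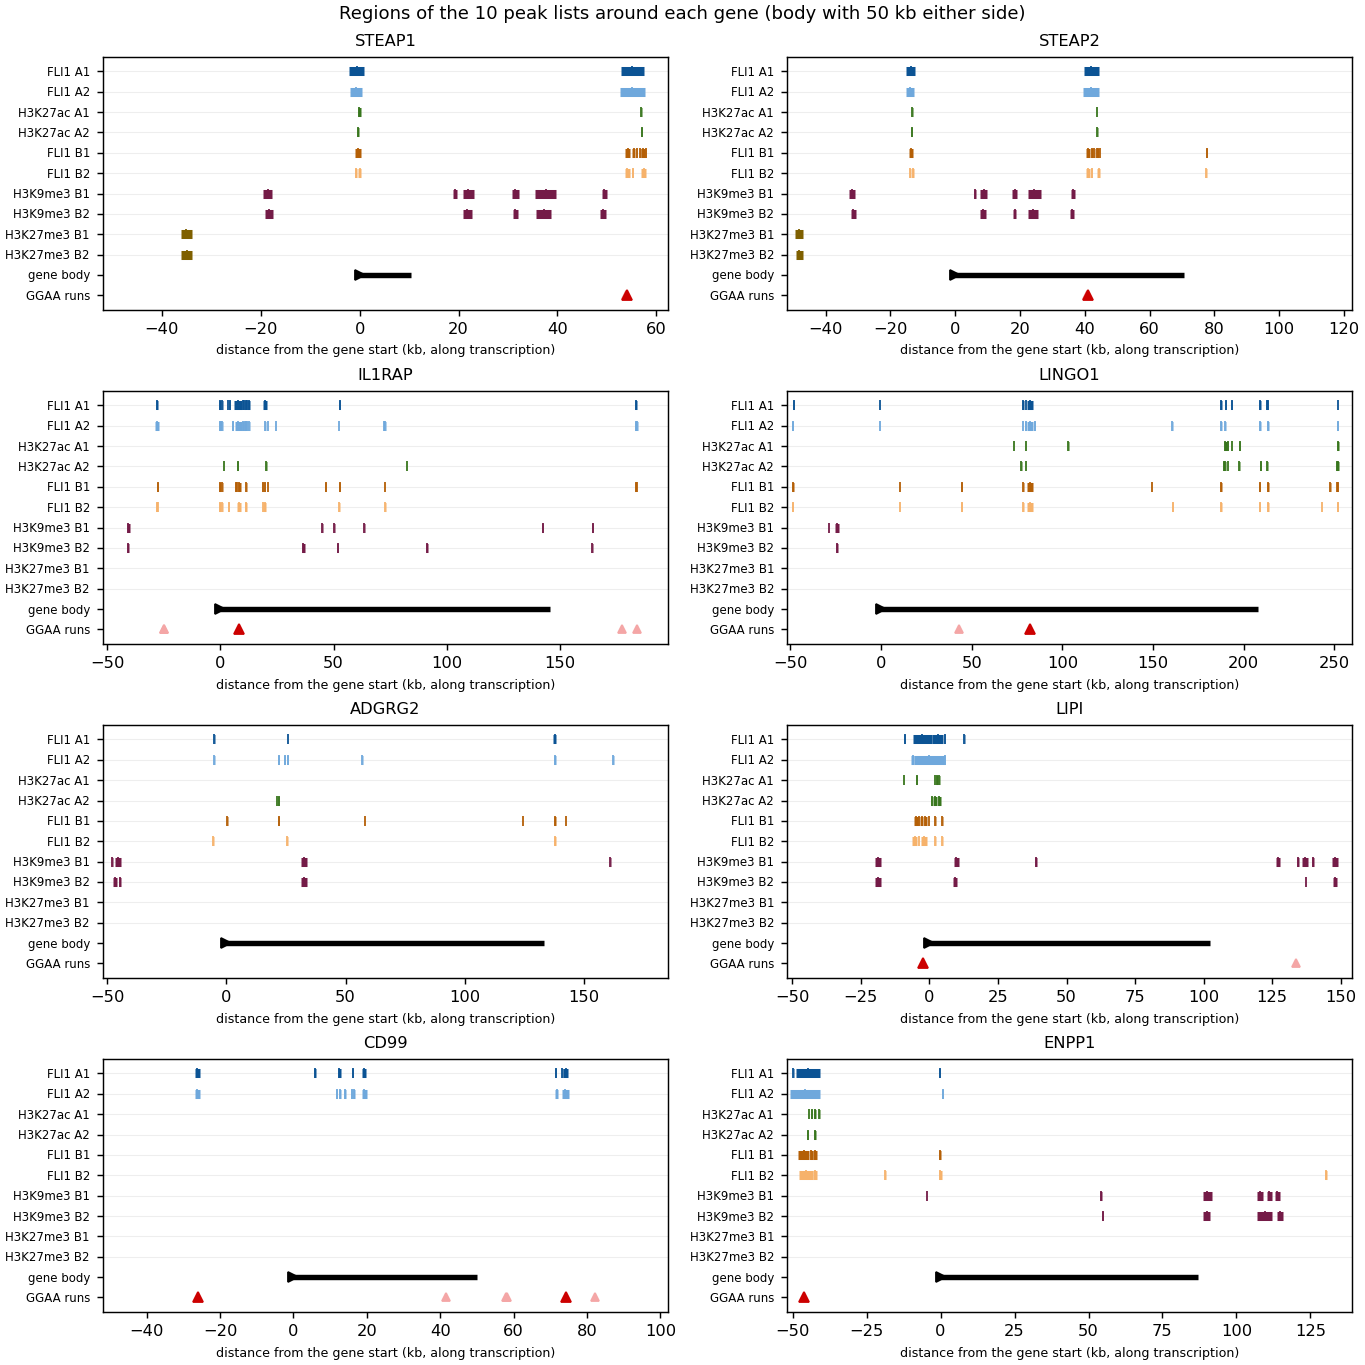
Regions of all 10 peak lists around each of the 8 genes, with distance from the gene start in kb on the x axis, positive along transcription, and 1 row per library (A1 is set A replicate 1). Bars are regions drawn to scale with a tick at the centre, the black bar is the gene body, and triangles are GGAA runs (dark red for at least 10 units, pale for 4 to 9). The 17-unit run in STEAP2, the 13-unit run in IL1RAP, the 16-unit run in LINGO1, the 11-unit run at LIPI and the 12-unit run at ENPP1 lie under FLI1 bars of all 4 libraries.

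STEAP1 and STEAP2, multi-pass membrane proteins of a metalloreductase family, lie next to each other on chromosome 7. At STEAP1 (ENSG00000164647, chr7:90154456-90164829, plus strand), FLI1 covered the start in all 4 libraries. The folds there were 43.7, 27.2, 24.8 and 16.7, at percentiles 97.6, 95.2, 94.3 and 88.5 of the lists. All 4 libraries were thus in the upper part of their lists at this start, and set A was above set B. The summits lay 184 to 216 bp from the transcript start. Each had 3 occurrences of CCGGAA or TTCCGG within 250 bp and no GGAA run. The palindrome before the start was counted once for each string, so these are fewer separate sites. Counted in the same way, 3 or more were reached by 1.11%, 1.05%, 1.35% and 1.67% of the lists' regions.

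The other FLI1 site of this pair was the 17-unit run inside STEAP2 (ENSG00000157214, chr7:90167590-90238137, plus strand). The region over the run had folds of 43.8, 56.5, 33.7 and 26.6, at percentiles 97.6, 98.5, 97.5 and 96.6, so it ranked among the strongest 5% in each list. A second run of 6 units lies just before it and fell in the same regions. The run lies 40.9 kb after the annotated start of STEAP2, 54.0 kb after that of STEAP1, and 3238 bp before the nearest internal start of STEAP2. It also lies in an intron of STEAP2-AS1, which is annotated on the same stretch. In set A, 1 region of 4616 and 5012 bp spanned both the run and the internal starts. In set B the run's region was 1134 and 1034 bp wide, and a separate region at the internal start had folds of 16.4 and 8.04. The annotated gene start of STEAP2 had no FLI1 region within 1 kb in any of the 4 libraries, so STEAP2 was counted as bound at a start through its internal starts.

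IL1RAP (ENSG00000196083, chr3:190514051-190659750, plus strand) encodes the accessory chain that pairs with the interleukin 1 receptor and related receptors. It had the most FLI1 regions of the 8 genes over the body and 10 kb either side, with 12, 16, 12 and 9. Its strongest region in set A lay over the 13-unit run, 8215 bp from the nearest start, with folds of 57.2 and 70.3 at percentiles 98.6 and 98.9. In set B the region over the run had folds of 9.66 and 19.4, at percentiles 61.9 and 92.1. Set A thus ranked above set B at this run, as it did at the STEAP2, LIPI and ENPP1 runs. At the LINGO1 run the sets overlapped, with percentiles 99.43, 99.94, 99.78 and 99.96. How often the sets separate over all bound runs was not counted. Over the genome, FLI1 regions of the 4 lists held similar shares of the runs of 13 to 15 units. These were 33.3%, 34.6%, 33.0% and 30.4%. At the start of IL1RAP, set B was the higher. Set A had folds of 8.54 and 6.92 there (percentiles 64.5 and 54.6). Those of set B were 15.3 and 19.03 (percentiles 83.5 and 91.7). In set B replicate 1 the start was the strongest region around the gene, not the run.

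LINGO1 (ENSG00000169783, chr15:77613027-77820900, minus strand) encodes a leucine-rich repeat protein of neurons that takes part in the Nogo receptor complex. Its 16-unit run carried the highest-ranked FLI1 region of the 8 genes in 3 libraries, set A replicate 2 and both of set B. The folds were 92.0, 214, 67.1 and 74.96, which placed the region 201st, 27th, 84th and 12th in the 4 lists. The run lies in an intron, 82.1 kb after the gene start and 18032 bp from the nearest of the gene's 11 annotated starts. LINGO1 had 12, 12, 12 and 11 FLI1 regions within 50 kb. A region 501 to 620 bp from an internal start was also present in all 4 libraries, with folds of 12.3, 11.5, 12.2 and 13.7, and the start call rested on it. The annotated gene start had weak regions in set A alone, with folds of 6.70 and 4.83.

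ADGRG2 (ENSG00000173698, chrX:18989307-19122637, minus strand), an adhesion G protein-coupled receptor, stood apart from these. No run of 4 or more GGAA units lies in its 50 kb window. It had 3, 6, 6 and 3 FLI1 regions within 10 kb. A single one of its 12 sites was shared by all 4 libraries, with folds of 20.9, 12.6, 20.6 and 12.3 at percentiles 91.9, 82.9, 91.1 and 77.5. That site lies past the end of ADGRG2 and next to the start of PHKA2, 442, 702, 725 and 703 bp from it. At a start of ADGRG2 itself, 1 library, set B replicate 1, had a region, at percentile 48.9 of its list.

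LIPI (ENSG00000188992, chr21:14108813-14210955, minus strand) encodes a membrane-associated phospholipase that acts on phosphatidic acid. Its 11-unit run lies 2359 bp upstream of its nearest start, the shortest such distance among the 5 runs. The region over the run had folds of 89.4, 77.0, 10.3 and 14.0, at percentiles 99.4, 99.1, 66.2 and 82.7, with both set A libraries above both of set B. Its extent differed between the sets, so these folds are not of like stretches. In set A the region over the run was 6825 and 10643 bp wide. It also covered the LIPI start and, on the other side of the run, the start of the neighbouring gene RBM11. In set B it was 1101 and 2235 bp wide. The strongest region in set B replicate 2, with a fold of 23.9 at percentile 95.2, lay elsewhere, 80 bp from the start of RBM11. In set B replicate 1 the strongest lay 1867 bp upstream of LIPI, with a fold of 11.9 at percentile 73.3.

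ENPP1 (ENSG00000197594, chr6:131808016-131895155, plus strand) encodes an ectoenzyme that cleaves extracellular nucleotides, including cGAMP. Its FLI1 signal was concentrated at the 12-unit run 46.1 kb upstream, which is nearer to the start of ENPP1 than to any other protein-coding start. The folds over the run were 133, 131, 56.7 and 32.7, at percentiles 99.8, 99.7, 99.6 and 98.1. The regions were 8258, 10180, 3690 and 4740 bp wide. By contrast the gene start had weak regions, with folds of 4.49, 5.91, 8.49 and 4.92 at percentiles 11.6, 38.3, 53.8 and 9.07. These were not 1 shared site. The region of set A replicate 2 lay in an intron, 691 bp from the start, and shared no base with those of the other libraries. With peaks limited to a −log10 q of at least 5, the start no longer had a region in all 4 libraries.

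CD99 (ENSG00000002586, chrX:2691187-2741309, plus strand), the glycoprotein used to diagnose Ewing sarcoma, could be read in 2 lists alone. It lies in the pseudoautosomal region PAR1 (chrX:10001-2781479), where the reference has the same sequence on X and Y: over CD99 and 10 kb either side, 0 of 70123 bases differed. The 2 FLI1 lists of set A held 17 and 21 regions in PAR1. The other 8 lists held 0 there. In the next equal stretch of X those 8 lists had between 1 and 28 regions, with 1 and 3 in the H3K27ac lists. Their lack of a region at CD99 therefore cannot be read as absence. What differed between the lists in PAR1 was not tested. In set A, CD99 had 8 and 9 FLI1 regions within 50 kb, and none within 1 kb of a start.

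The strongest of them lay over the 13-unit run 25998 bp upstream of CD99, with folds of 27.4 and 35.5 at percentiles 94.9 and 96.9. A 10-unit run in an intron of the next gene, XG, 74.2 kb after the CD99 start, lay in regions with folds of 9.85 and 13.4. Inside CD99, the regions with the highest rank in both libraries had folds of 14.3 and 16.4, and of 15.2 and 15.2, and lay 12.8 and 19.3 kb after the start. Neither of these held a run. The 4 other runs in the window, of 4 or 5 units, lay in no FLI1 region.

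**Figure D2:**
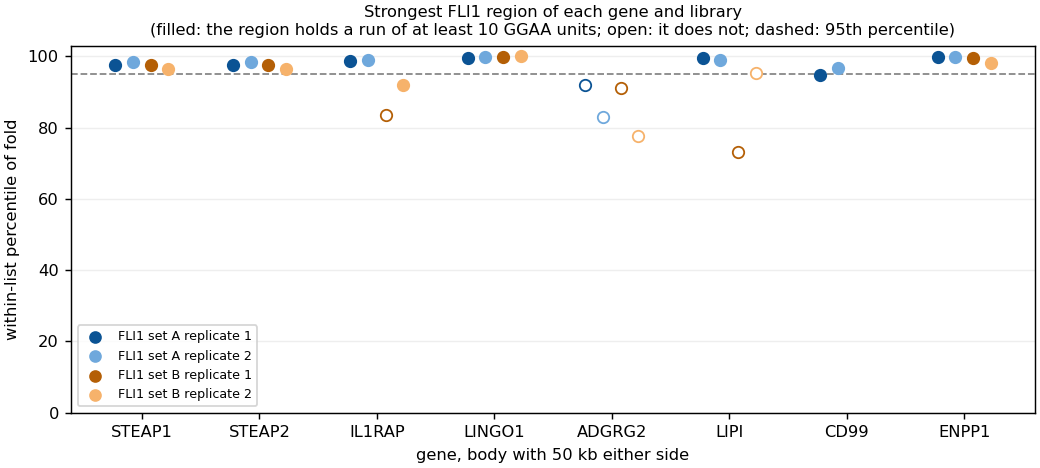
Within-list percentile of fold (y axis, 0 to 100) of the strongest FLI1 region within each gene body and 50 kb either side, for the 4 FLI1 libraries; filled points are regions that hold a run of at least 10 GGAA units and the dashed line is the 95th percentile. STEAP1, STEAP2, LINGO1 and ENPP1 lie above the line in all 4 libraries with filled points, ADGRG2 lies below it with open points, and CD99 has points for set A alone.

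By gene, 4 of the 8 (STEAP1, STEAP2, LINGO1 and ENPP1) had a FLI1 region among the strongest 5% of every list within 50 kb, against 8.94% of all genes. STEAP1 and STEAP2 count separately here although the same run serves both. FLI1 lay within 1 kb of a start in all 4 libraries at 6 of 8 genes, against 38.3% of all genes, at 7 of 8 within 10 kb of the body, against 56.3%, and at 7 of 8 within 50 kb, against 73.9%. ADGRG2 and CD99 were the genes without such a start. A call asked for a region in each library within the window, which need not be the same site, as at the start of ENPP1. CD99 was the gene not called within 10 kb or 50 kb: it had FLI1 regions in set A, and set B could not be read there. All 7 genes that could be read in the 4 libraries were called. These background shares are high, so a FLI1 region near a gene says little by itself. The 8 genes are also long, with a median of 94.6 kb against 27.5 kb for all genes, and windows that follow the gene body grow with it. With 50 kb either side of the gene start, the same width for every gene, the FLI1-bound runs of at least 10 units were found at 4 of 8 genes (STEAP2, IL1RAP, LIPI and ENPP1), against 2.25% of all genes.

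**Figure D3:**
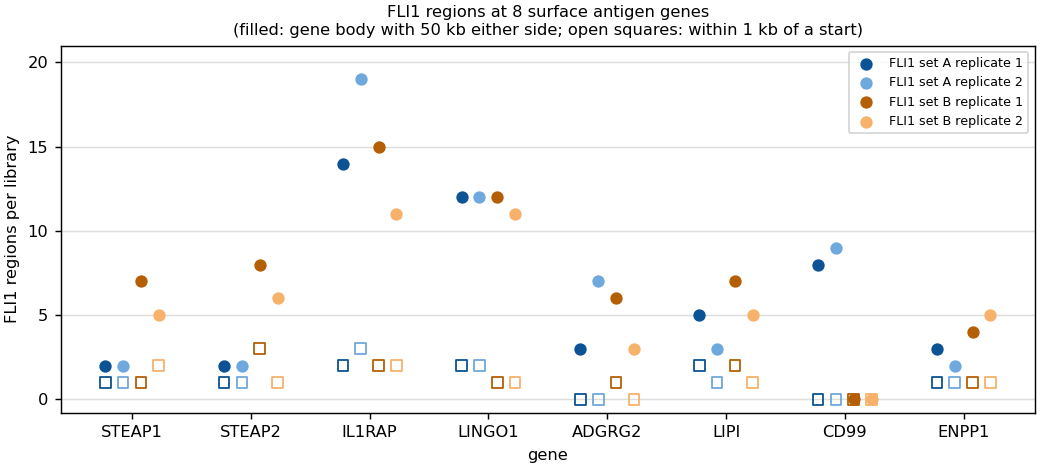
Number of FLI1 regions (y axis) per library at each of the 8 genes (x axis), with filled circles for the gene body and 50 kb either side and open squares for regions within 1 kb of a start. IL1RAP has between 11 and 19 regions, LINGO1 has 11 or 12, and CD99 has 8 and 9 in set A and 0 in set B.

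Long runs and short runs differed in how often they were bound. Around the 7 genes outside PAR1 there were 12 distinct runs of at least 4 units. The 5 with at least 10 units lay in FLI1 regions of all 4 libraries, against 22.6% of the 3312 runs of that length on the autosomes and X without PAR1. Of the other 7, the 6-unit run beside the long STEAP2 run lay in all 4, the 8-unit run past the end of IL1RAP lay in 1 library, set A replicate 1, and 5 lay in none. Over the genome the bound share was 3.74% for 4 to 6 units, 11% for 7 to 9, 17.5% for 10 to 12, 24.7% for 13 to 15, 34.9% for 16 to 19 and 32.0% for 20 or more, the last from 25 runs. The members were chosen by name as known antigens, with earlier results of these data known, so the 5 of 5 is a description of these loci.

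**Figure D4:**
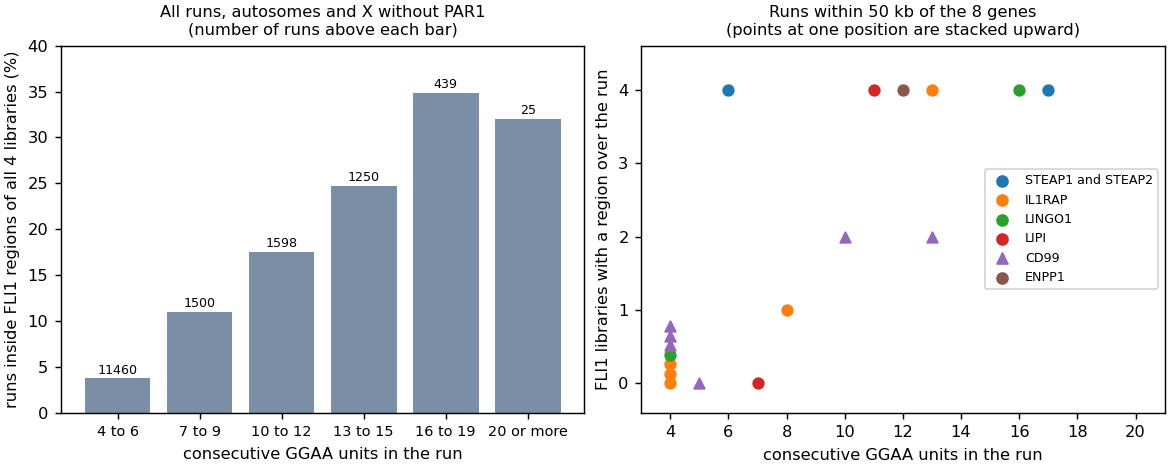
Left, share of GGAA runs inside FLI1 regions of all 4 libraries (y axis, %) by number of consecutive units, for the autosomes and X without PAR1, with the number of runs above each bar; right, each run around the 8 genes by its units (x axis) and the number of FLI1 libraries with a region over it (y axis, 0 to 4). The bars go from 3.74% at 4 to 6 units to 34.9% at 16 to 19, and the 5 runs of 11 to 17 units outside CD99 lie at 4 libraries.

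The summits did not fall on the runs but beside them. Over the 5 runs and 4 libraries, the distance from the run's edge to the summit was between 131 and 772 bp, and in none of the 20 pairs did the summit lie inside the run. The largest, 772 bp, was at LIPI in set B replicate 2. The same was seen over all bound runs of at least 10 units, where the median distance was 216, 210, 192 and 197 bp and 0.101%, 0%, 1.20% and 0.654% of summits lay inside. Counts that ask for a run close to the summit are set by this spacing. Within 250 bp of the summit, a run of at least 4 units was found in all 4 libraries at 2 of 8 genes within 10 kb (STEAP2 and LINGO1), against 1.49% of all genes, and at 4 of 8 within 50 kb (also STEAP1 and ENPP1), against 3.34%. By region, 7 of 47, 7 of 54, 4 of 52 and 3 of 41 regions in the members' windows held one, which is 14.9%, 13%, 7.69% and 7.32%. Over the whole lists it was 3.86%, 3.81%, 3.84% and 4.08%.

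Active chromatin at starts was found at fewer of these genes than FLI1, as it was over all genes (14.8% for H3K27ac against 38.3% for FLI1). H3K27ac lay within 1 kb of a start in both libraries at 3 of 8 genes (STEAP1, STEAP2 and LINGO1), against 14.8% of all genes. It lay within 10 kb of the body at 4 of 8, with LIPI added, against 28.3%, and within 50 kb at 5 of 8, with ENPP1 added, against 44.8%. At STEAP1 the region at the start had folds of 6.26 and 4.46 in replicates 1 and 2. At STEAP2 it lay at the internal starts, with folds of 3.98 and 4.53. At LINGO1 it lay 996 and 859 bp from an internal start, with folds of 6.15 and 4.00. In replicate 1 the regions at STEAP1 and LINGO1 had −log10 q values of 5.47 and 6.75, at fold percentiles 87.0 and 85.3. With a −log10 q of at least 5 asked of both libraries, the count was 0 of 8, near the 3.45% of all genes.

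H3K27ac also lay near the bound runs. The nearest H3K27ac region was 2768 and 2871 bp from the STEAP2 run in replicates 1 and 2, 2077 and 2012 bp from the LINGO1 run, 2116 and 2984 bp from the LIPI run, and 1525 and 1043 bp from the ENPP1 run. At IL1RAP it was 251 bp from the run in replicate 2, and replicate 1 had no H3K27ac region in the gene's window. At LIPI the nearest regions of the 2 replicates lay on opposite sides of the run. They were chr21:14215452-14215799 in replicate 1 and chr21:14209994-14210308, in a LIPI intron, in replicate 2. Further into LIPI the replicates had overlapping regions, at chr21:14208837-14209040 and chr21:14208015-14209568. So 4 of the 5 runs had H3K27ac within 5 kb in both libraries, against 27.2% of the 750 bound runs of at least 10 units and 0.683% of the 2049 such runs in no FLI1 region. ENPP1 had 4 and 2 H3K27ac regions within 50 kb, all of them inside the set A FLI1 regions at its upstream run, and none at its start. LIPI had 5 and 3, LINGO1 8 and 10, IL1RAP 0 and 4, ADGRG2 0 and 2, and CD99, in PAR1, 0 and 0. The set A H3K27ac lists differed in length, with 10219 and 17366 regions, and the regions at IL1RAP and ADGRG2 were in the longer one.

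**Figure D5:**
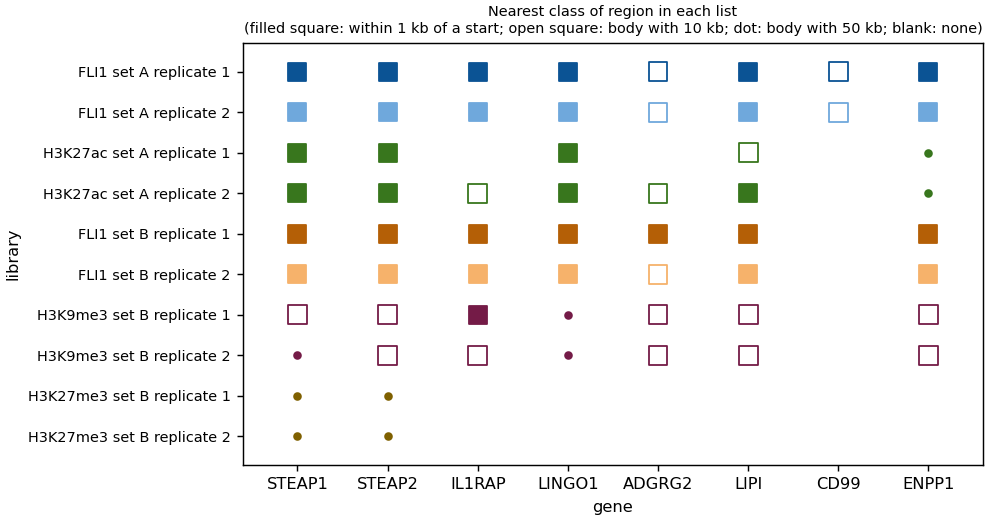
Presence of a region in each of the 10 lists (rows) at each of the 8 genes (columns): a filled square is a region within 1 kb of a start, an open square within the body and 10 kb either side, a dot within 50 kb, and a blank none. FLI1 has filled squares in all 4 libraries at 6 genes, H3K27ac in both libraries at 3, and H3K27me3 has none.

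H3K27me3 lay within 1 kb of a start in both libraries at 0 of 8 genes, against 11.0% of all genes, and within 10 kb at 0 of 8, against 17.6%. CD99 cannot be counted in these lists, which leaves 7 genes that could be read. Within 50 kb it lay at 2 of 8, against 29.4%, through 1 region 35.0 kb upstream of STEAP1 that also falls in the window of STEAP2, with folds of 6.03 and 4.99. With 7 or 8 genes, none of these counts stands apart from the share over all genes.

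H3K9me3 lay within 1 kb of a start in both libraries at 0 of 8 genes, against 2.21% of all genes, a share too low for a count of 0 in 8 to differ from it. Further out it was common: within 10 kb at 5 of 8 (STEAP2, IL1RAP, ADGRG2, LIPI and ENPP1), against 25.3%, and within 50 kb at 7 of 8, against 44.5%. As for FLI1 and H3K27ac, these windows grow with the gene body. The median length was 94.6 kb for the 8 genes and 27.5 kb for all genes. The strongest H3K9me3 region at these genes by rank lay in STEAP2, 8.82 and 8.65 kb after the gene start, with folds of 7.53 and 7.68 at percentile 99.1 in both lists. STEAP2 thus held H3K9me3 regions in the stretch between its annotated start and the FLI1-bound run. The nearest to the run ended 3940 and 4046 bp before it. IL1RAP had a region 881 bp from an internal start in replicate 1, with a fold of 5.04, and not in replicate 2. In all, 0 of 32 and 0 of 22 H3K9me3 regions around the 8 genes shared a base with a FLI1 region, where 2.44% and 2.35% of the whole lists did. These shares are too low for counts of 0 to stand apart from them. Of the H3K27ac regions, 14 of 19 and 16 of 23 shared a base with a FLI1 region, which is 73.7% and 69.6%. The whole H3K27ac lists had 58.5% and 53.4%.

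The counts were also taken over 27 relatives from the same families and over 22 other surface proteins studied in Ewing sarcoma. A FLI1 region within 1 kb of a start in all 4 libraries was found at 3 of 27 relatives and 11 of 22 other targets. A bound run of at least 10 units within 50 kb was found at 2 of 27 and 4 of 22. Among the 2 relatives was ENPP3, which had no such run within 50 kb of its gene start. Whether the run counted for ENPP3 is the one counted for ENPP1 was not checked, so the counts of relatives and members may share a run. H3K27ac lay at a start in both libraries at 0 of 27 and 2 of 22, and H3K27me3 at 6 of 27 and 5 of 22. No difference between these gene lists was tested.

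In each of the lists, 1 gene had a run of at least 4 units at a FLI1 summit in all 4 libraries within 10 kb. ROR1, a receptor tyrosine kinase-like protein, had 11 units 13.7 kb after its start, with folds of 76.8, 75.9, 10.7 and 30.2. XG, the blood group protein next to CD99, had 9 units just past its 3′ end, with folds of 30.4, 35.5, 15.9 and 17.0. That region starts 32.9 to 35.3 kb beyond the end of PAR1, where all 10 lists could be read.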

How the data were processed

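Peak lists of 10 CUT&RUN libraries of TC-32 cells were used. Per the file names, the authors called each list from 1 library with duplicates removed, against the IgG control with its set letter and replicate number. FLI1 and H3K27ac lists are narrow peaks, H3K9me3 and H3K27me3 lists broad peaks. The submitters' processing notes name cutadapt 4.4, Bowtie2, Picard 2.17.11, MACS2 2.1.1 and hg38, without roles. The deposited lists give for each peak a score, the fold enrichment over IgG, and the −log10 p and −log10 q of the authors' caller. The score was used in no result. Read totals are not given in the sources used here, so depth is unknown, and there are no intervals. The lists reach down to a −log10 q of about 2.

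Overlapping peaks of a list were merged, with the values of the peak with the highest −log10 q. This took the H3K27ac lists from 13974 and 23368 peaks to 10219 and 17366 regions. Coordinates are hg38, 1-based. Gene models are GENCODE v44 and promoter bases are from the RefSeq table, in which all 8 genes matched by symbol. A GGAA run is at least 4 consecutive units of GGAA, or TTCC on the other strand. Runs at a summit were sought within 250 bp of it, and a run was counted in a region that shared at least 1 base with it. A gene counts as called where all libraries of an antibody have a region. Genes were named by belonging to the 8, and genes of the other lists where a run of at least 4 units was at a FLI1 summit in all 4 libraries within 10 kb. Neighbours are named where a region lies at their start, and ENPP3 as a relative of ENPP1 with a bound run. The results come from no test, and the shares over all 19970 genes stand beside them. The 8 genes and the gene lists were chosen with earlier results of these data known. Alternatives covered distances, −log10 q limits, summit windows and left-out libraries. Intersections were tested on simulated data. Python 3.11.15, pandas 2.3.3, numpy 2.4.6, pysam 0.24.0, samtools 1.23.1 and matplotlib 3.10.9 were used.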

Additional observations from a re-analysis of the deposited data

Results flagged for a closer look

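Of 22 comparisons of 4 FLI1 libraries, 4 had 1 library apart from the other 3 by Dixon's criterion (the gap to the nearest library over the whole range), which chance alone gives at a rate of about 5%. STEAP1 had 2 FLI1 regions within 10 kb in set B replicate 2 and 1 in each other library, where 2 regions were listed at its start. LINGO1 had 11 regions within 50 kb in set B replicate 2 and 12 in each other library. Both differ by 1 region, so the criterion rests on ties. The strongest region around LIPI was at percentile 73.3 in set B replicate 1 and at 95.2, 99.1 and 99.4 elsewhere. At ENPP1 it was at 98.1 in set B replicate 2 and at 99.6, 99.7 and 99.8 elsewhere, so all 4 libraries were in the strongest 5%.

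The Y copy of the CD99 window, which no count above uses, held 11 and 12 FLI1 regions in set A replicates 1 and 2, beside 8 and 9 on X. Of those on X, 7 and 8 had a region at the same place on Y. The other 8 lists had 0 on both copies.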

How the results depend on the processing

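The count of genes with FLI1 at a start was 6, and between 4 and 6 under 9 alternatives. It was 4 within 0.5 kb of a start, by summit within 1 kb and at the gene start alone, where 36.8%, 36.9% and 33.8% of all genes were called, so there it is close to the background. The count with FLI1 within 10 kb was 7, and 6 to 7 under 8 alternatives. Bound runs of at least 10 units were at 6 genes, and at 4 to 6 under 6 settings, all of which were added after seeing the data. Runs at summits within 10 kb, at 2 genes, moved with how a run was counted: 0 within 100 bp of the summit, 4 anywhere in the region, 4 with 50 kb either side, and 6 with both changes. The shares of all genes were 0.02%, 2.28%, 3.34% and 4.73%, so nearly no gene was called within 100 bp. The last 2 settings were also added after seeing the data. H3K27ac at starts, at 3 genes, was at 0 with a −log10 q of at least 5 (3.45% of all genes) and at 5 over the body with 50 kb either side. H3K9me3 at starts, at 0 genes, was at 1 within 5 kb, at 1 in either library, at 5 over the body with 10 kb and at 7 with 50 kb either side, and between 0 and 1 with either replicate left out. That gene was IL1RAP, with a region within 1 kb in replicate 1 and within 5 kb in both replicates. H3K27me3 at starts, at 0, was at 2 over the body with 50 kb either side. No paired analysis was possible because the results come from no test.

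Limits: depth is unknown, so folds are compared by rank within a list and a missing region is not evidence of absence. Each antibody has 2 libraries, or 2 in each set, of 1 cell line. Peak lists show where FLI1 was found, and do not tie a run to a gene.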
